A study of Mus musculus with 9 samples.

Results

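The 9 genes described here are members of the S100 family of small calcium-binding proteins: S100a1, S100a4, S100a6, S100a8, S100a9, S100a10, S100a11, S100a13 and S100b. They are 9 of the 24756 gene rows of the count table, and all 9 were among the 10215 genes that passed the filter on low counts. They were chosen by their measured values, as family members that moved in opposite directions in these same libraries, so their levels, their fold changes and the counts of members past the threshold of the fit over all genes are given as a description. No p-value of a member is printed, and none of these counts supports a statement about the family. The libraries came from a mouse acute myeloid leukaemia cell line made from foetal liver cells. All cells carried the retroviral vector MSCV-Luc2-IRES-MLL-AF9, which expresses the fusion oncogene MLL-AF9 constitutively. They also carried TRE-tight-DsRED-IRES-FLT3-ITD, from which the mutant receptor FLT3-ITD is made only while doxycycline is present. OFF24 and OFF48 cells had been washed and kept without doxycycline for 24 h and 48 h, and ON cells stayed in 1 µg/mL doxycycline. The labels do not say that ON cells were washed, so washing, loss of doxycycline and loss of FLT3-ITD cannot be told apart. The level of the FLT3-ITD transgene was not analysed here. Each group had 3 libraries, made with a 3′ mRNA kit that reads the ends of transcripts, and nothing in the labels says that they came from separate cultures. P-values therefore measure the spread between these libraries, which may be technical, and all of them come from 1 cell line.

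S100 proteins carry a pair of EF-hand loops, most of which bind calcium, and usually act as dimers that take hold of target proteins when calcium rises. S100a8 and S100a9 pair to form calprotectin, a major cytosolic protein of neutrophils and monocytes that is released at sites of inflammation and takes part in antimicrobial defence. Other members act on the cytoskeleton, on annexins and membranes, or on chaperones, and most of the S100a genes of the mouse lie close together in a cluster on chromosome 3.

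The stretches around the starts of 6 members are shown because members that moved in opposite directions lie in the same part of chromosome 3. Other annotated genes lie between the members of opposite direction. The sequences are RefSeq's for build GRCm38.p6, 250 bases before to 50 bases after the annotated start, written 5′ to 3′ along the gene. The first is S100a8 at chr3:90668821-90669120 on the plus strand and the second is S100a9 at chr3:90695672-90695971 on the minus strand. They are followed by S100a4 at chr3:90603520-90603819 and S100a6 at chr3:90612644-90612943, both on the plus strand. Capitals mark matches to the motifs described after the sequences, a motif on the opposite strand appearing as its reverse complement.
S100a8: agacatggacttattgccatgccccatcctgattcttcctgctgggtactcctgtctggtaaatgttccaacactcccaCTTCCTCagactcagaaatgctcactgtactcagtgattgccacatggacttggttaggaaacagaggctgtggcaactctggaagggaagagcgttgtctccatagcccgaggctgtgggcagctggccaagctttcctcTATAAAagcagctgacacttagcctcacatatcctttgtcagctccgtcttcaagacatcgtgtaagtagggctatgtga
S100a9: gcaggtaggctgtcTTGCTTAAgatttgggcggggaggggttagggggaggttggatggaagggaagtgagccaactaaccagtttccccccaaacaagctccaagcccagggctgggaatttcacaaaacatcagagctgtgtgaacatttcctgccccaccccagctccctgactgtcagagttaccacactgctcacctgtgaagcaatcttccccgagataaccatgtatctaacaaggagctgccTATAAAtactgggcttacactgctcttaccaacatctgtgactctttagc
S100a4: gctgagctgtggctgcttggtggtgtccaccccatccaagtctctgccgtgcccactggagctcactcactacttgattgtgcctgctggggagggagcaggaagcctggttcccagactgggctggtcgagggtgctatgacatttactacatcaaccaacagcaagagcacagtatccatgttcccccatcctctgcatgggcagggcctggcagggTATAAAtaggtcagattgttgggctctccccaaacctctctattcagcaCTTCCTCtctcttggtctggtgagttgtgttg
S100a6: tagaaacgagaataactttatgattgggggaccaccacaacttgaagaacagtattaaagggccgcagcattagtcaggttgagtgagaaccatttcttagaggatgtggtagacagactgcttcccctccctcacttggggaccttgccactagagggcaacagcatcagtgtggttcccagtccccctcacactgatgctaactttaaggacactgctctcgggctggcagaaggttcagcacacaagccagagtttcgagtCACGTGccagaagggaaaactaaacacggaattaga

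S100a1 and S100a13 are transcribed away from each other. The next window is that of S100a13 at chr3:90514185-90514484 on the plus strand, with the 104 bases that separate the RefSeq starts of both genes in capitals.
S100a13: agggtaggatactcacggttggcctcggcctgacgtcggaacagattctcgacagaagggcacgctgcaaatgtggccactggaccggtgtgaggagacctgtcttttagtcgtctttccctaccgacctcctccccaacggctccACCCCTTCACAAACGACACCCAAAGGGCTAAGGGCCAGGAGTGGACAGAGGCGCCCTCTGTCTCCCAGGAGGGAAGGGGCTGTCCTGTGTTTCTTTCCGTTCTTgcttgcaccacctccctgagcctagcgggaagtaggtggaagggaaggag

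The windows of S100a1 and S100a13 share 204 bases. S100a10 is named only. The motif TATAAA, the core of the TATA box, was found in S100a4 at 31 to 26 bases before the start, in S100a8 at 30 to 25 bases before it and in S100a9 at 1 to 6 bases after it. It is present in 13.6% of all 32851 windows of this length. The letters TTGCNNAA, a form of the site of C/EBP factors, occurred in S100a9, 236 to 229 bases before the start, and in 10.8% of all windows. GAGGAAG, a form of the site of the myeloid factor PU.1, was read on the opposite strand of S100a8 (171 to 165 bases before the start) and of S100a4 (19 to 25 bases after it), and 13.6% of all windows hold it. CACGTG, the E-box that MYC binds, occurred in S100a6, 15 to 20 bases after the start, in S100a11, 223 to 218 bases before it, and in 7.15% of all windows. The HIF motif ACGTG lies inside each CACGTG and so was found in the same members, against 19.6% of all windows. TGANTCA, bound by AP-1, was found in S100a11 alone among the members, at 136 to 130 and 38 to 32 bases before the start, and in 7.81% of all windows. TTCNNNGAA, bound by STAT factors (8.3% of all windows), and TGATGNAA, bound by ATF4 with C/EBP (3.97%), were in none of the 8 member windows. Both strands were searched for every motif, and a match is a run of letters, not a measured binding site.

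The shallowest library was OFF48 replicate 2 with 1329296 counts and the deepest was ON replicate 2 with 4038456. A count of 0 allows up to 3 counts, which is between 0.737 and 2.25 CPM (counts scaled to library size). The defining markers of neutrophils, leaving out S100a8 and S100a9, summed to between 1276 and 1424 CPM in OFF24 libraries, 7467 and 9913 CPM in OFF48 libraries, and 812 and 1123 CPM in ON libraries, with 0 of 7 markers at 0. The 9 monocyte and macrophage markers summed to between 319 and 350 CPM in OFF24, 150 and 199 CPM in OFF48 and 191 and 263 CPM in ON, with Fcgr1 at 0 in OFF48 and ON. The 7 myeloid progenitor markers summed to between 3697 and 4122 CPM in OFF24, 4732 and 5392 CPM in OFF48 and 2271 and 2351 CPM in ON. Erythroid and lymphoid markers summed to at most 2.25 and 1.67 CPM in any library, with Hbb-bs, Hbb-bt, Epor and Alas2 at 0 in all groups. Those of mast cells, basophils and megakaryocytes summed to between 18.8 and 22.9 CPM in OFF24, 10.5 and 15.7 CPM in OFF48 and 5.87 and 9.58 CPM in ON, with Cpa3, Fcer1a and Ppbp at 0 in all groups. Markers of hepatocytes, endothelium and stroma summed to at most 8.75 CPM, and Alb, Ttr, Cdh5 and Lyve1 were at 0 in all groups. Their part in the S100 levels was not tested. In these bulk samples fewer cells of a type and less RNA per cell cannot be told apart.

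Of the 9 genes, S100a8, S100a9, S100a10 and S100a11 were close to their ON level at 24 h, with log2 fold changes between -0.24 and 0.04, and the other members lay further from it. That some members are higher and some lower is what they were chosen for. In OFF24 against ON, 3 members (S100a1, S100a4 and S100a13) were past an adjusted p of 0.05, the threshold for calling a gene, as higher and 1 (S100a6) as lower, where 17.8% of all tested genes were called higher and 17.4% lower. In OFF48 against ON, 6 members (S100a1, S100a8, S100a9, S100a11, S100a13 and S100b) were called higher and 3 (S100a4, S100a6 and S100a10) lower, against 23.4% and 23.9% of all tested genes. In OFF48 against OFF24, 4 members (S100a1, S100a8, S100a9 and S100a11) were called higher and the same 3 lower, against 9.99% and 11.2% of all tested genes. The members were selected on these contrasts, so nothing is read from their counts. Their median log2 fold change was 0.04 in OFF24 over ON, 0.75 in OFF48 over ON and 0.71 in OFF48 over OFF24, beside medians of 0.03, 0.01 and 0.00 over all tested genes.

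**Figure D1:**
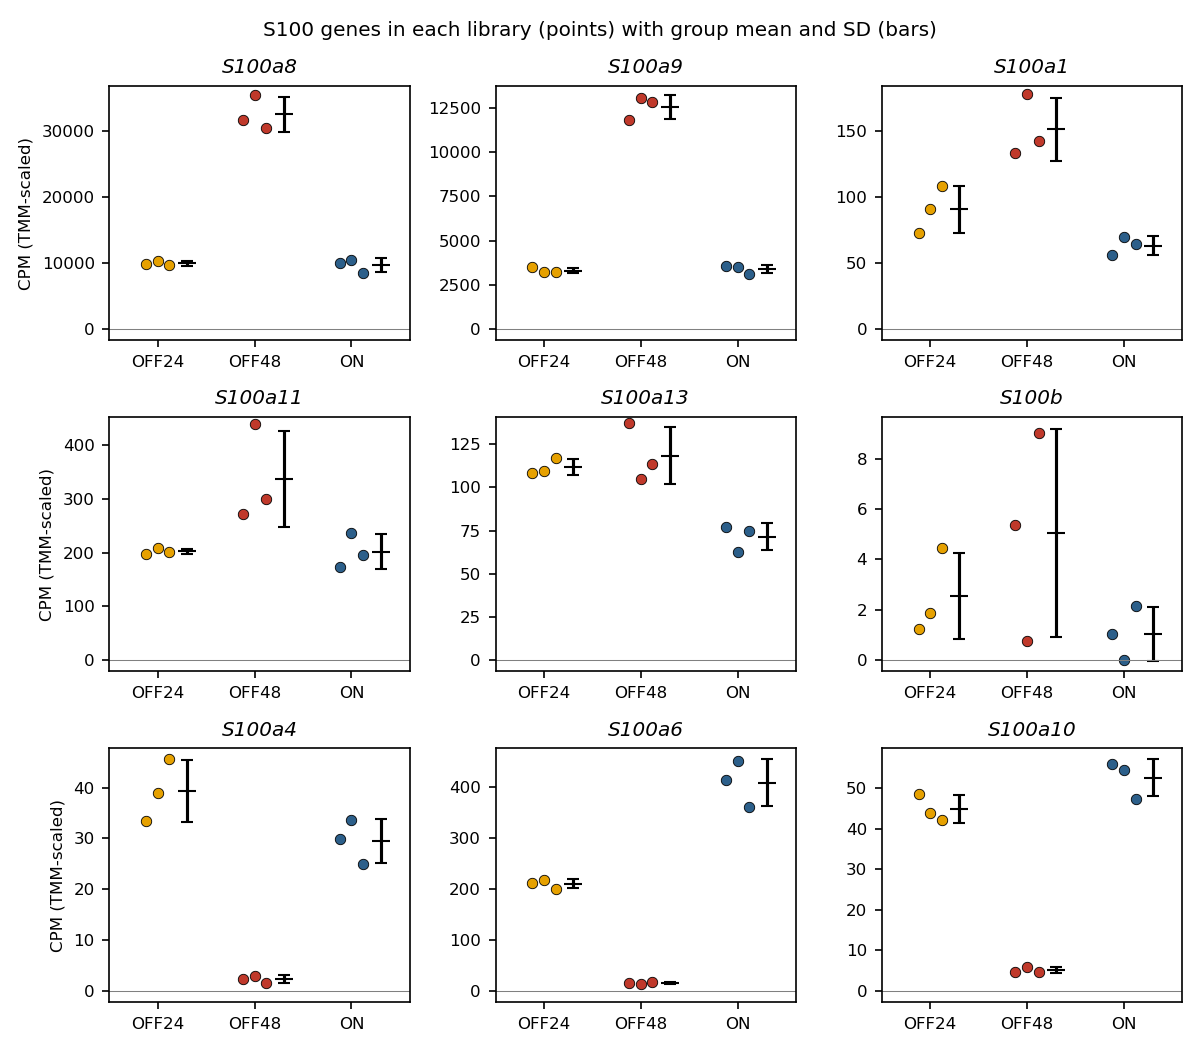
CPM of each S100 gene on the vertical axis (scaled by TMM, a normalisation of library sizes, each panel with its own linear axis) in the 3 libraries of OFF24, OFF48 and ON on the horizontal axis. Points are libraries and the bars beside them are the group mean and SD. OFF48 libraries of S100a8 lie between 30534 and 35549 CPM, above all others, while those of S100a6 lie between 12.7 and 17.5 CPM, below all others.

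S100a8, the smaller subunit of calprotectin, took 9909, 10368 and 9641 CPM in OFF24 libraries, 31681, 35549 and 30534 CPM in OFF48 libraries and 10007, 10475 and 8532 CPM in ON libraries. The OFF48 libraries were all higher than the others, and those of OFF24 and ON overlapped. Its log2 fold change was 1.75 ± 0.10 (SE) in OFF48 over ON, which is 3.37-fold, and 0.04 ± 0.09 in OFF24 over ON. S100a9, its partner subunit, had 3482, 3210 and 3199 CPM in OFF24, 11805, 13046 and 12870 CPM in OFF48 and 3544, 3501 and 3111 CPM in ON. The pattern was the same, with a clear gap between the OFF48 libraries and all others. S100a9 was 3.71-fold higher in OFF48 than in ON (log2 1.89 ± 0.09), and its log2 fold change in OFF24 over ON was -0.04 ± 0.09.

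Together S100a8 and S100a9 made up 1.31 ± 0.0434% of all counts in OFF24 libraries, 4.52 ± 0.313% in OFF48 libraries and 1.31 ± 0.13% in ON libraries (SD, n = 3 each). S100a8 held the largest count of all genes in every OFF48 library and in ON replicate 2, and the second largest in the other libraries. S100a9 ranked second in all OFF48 libraries and between 24 and 31 in OFF24 and ON libraries. These ranks are of counts and are not divided by transcript length. The ratio of S100a8 to S100a9 counts was 3.03 ± 0.192 in OFF24, 2.59 ± 0.193 in OFF48 and 2.85 ± 0.127 in ON. The 3 OFF48 libraries, at 2.372 to 2.725, were all below the others, but only just, since the lowest ON library had 2.743. The summed neutrophil markers, given above, were also highest in OFF48 libraries, where Camp had a mean of 5167 CPM and Ngp one of 3072 CPM. Ly6g, on the same list, was not highest there, with 14.1 CPM in OFF24, 8.78 CPM in OFF48 and 7.41 CPM in ON. The summed myeloid progenitor markers were highest in OFF48 libraries too. A part of cell maturity or makeup in the level of the pair was not tested.

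The 3 members that were lower at 48 h differed in their timing. S100a6, also called calcyclin, which binds the calcyclin-binding protein Cacybp, had 212, 218 and 201 CPM in OFF24, 15.1, 12.7 and 17.5 CPM in OFF48 and 414, 451 and 361 CPM in ON. The 3 groups did not overlap: OFF48 was the lowest and OFF24 stood between it and ON. The log2 fold change was -0.96 ± 0.11 in OFF24 over ON and -4.71 ± 0.14 in OFF48 over ON, where S100a6 was 26.2-fold lower. S100a6 was the only member whose OFF24 libraries all lay below those of ON.

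S100a4, a regulator of cell motility that binds non-muscle myosin, had 33.4, 38.9 and 45.6 CPM in OFF24, 2.35, 3.00 and 1.46 CPM in OFF48 and 29.8, 33.7 and 25.0 CPM in ON. OFF48 libraries were the lowest, with only 7, 4 and 5 counts behind these values, and OFF24 overlapped with ON. Its log2 fold change was 0.41 ± 0.16 in OFF24 over ON. This call was lost with the size factors of DESeq2, with library size alone, with the DESeq2 test and in the authors' deposited log2 table. Using no filter on low counts, or scaling without S100a8 and S100a9, lost the call as well. It was also lost when 1 library was left out, with values of 0.40 without ON replicate 1, 0.31 without ON replicate 3, 0.41 without OFF24 replicate 2, 0.27 without OFF24 replicate 3, and 0.40 without OFF48 replicate 1 or 3. In OFF48 over ON it was -3.82 ± 0.28, or 14.1-fold lower.

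S100a10, which does not bind calcium and holds annexin A2 (Anxa2) in a complex at the membrane, had 48.5, 43.9 and 42.0 CPM in OFF24, 4.70, 6.0 and 4.67 CPM in OFF48 and 55.9, 54.5 and 47.2 CPM in ON. The OFF48 libraries, with 14, 8 and 16 counts, were far below the rest, and the OFF24 and ON libraries overlapped. The log2 fold change was -0.24 ± 0.13 in OFF24 over ON and -3.41 ± 0.19 in OFF48 over ON, or 10.6-fold lower. Against OFF24, the OFF48 log2 fold changes were -4.23 ± 0.27 for S100a4, -3.75 ± 0.14 for S100a6 and -3.17 ± 0.19 for S100a10. The larger step of all 3 genes thus lay between OFF24 and OFF48.

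Among the members higher after washout, S100a1, known from muscle as a partner of calcium release channels and of the calcium pump of the sarcoplasmic reticulum, had 72.7, 90.4 and 108 CPM in OFF24, 133, 178 and 142 CPM in OFF48 and 55.6, 69.3 and 64.1 CPM in ON. The 3 groups were ordered without overlap, lowest in ON and highest in OFF48. The log2 fold change was 0.53 ± 0.15 in OFF24 over ON and 1.24 ± 0.14 in OFF48 over ON. The value at 24 h was 0.43 without ON replicate 1, 0.36 without OFF24 replicate 3 and 0.52 in the authors' deposited log2 table, and was then no longer called.

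S100a13, which takes part in the release of proteins that lack a signal peptide, had 108, 110 and 117 CPM in OFF24, 137, 105 and 113 CPM in OFF48 and 76.8, 62.4 and 74.8 CPM in ON. Both OFF groups lay above ON and overlapped with each other. The log2 fold change was 0.65 ± 0.12 in OFF24 over ON and 0.75 ± 0.12 in OFF48 over ON, with 0.09 ± 0.12 between OFF48 and OFF24. S100a11, a partner of annexin A1, had 198, 207 and 200 CPM in OFF24, 272, 439 and 299 CPM in OFF48 and 173, 237 and 195 CPM in ON. OFF48 libraries were the highest, and OFF24 and ON overlapped. Its log2 fold change was 0.72 ± 0.15 in OFF48 over ON and 0.00 ± 0.15 in OFF24 over ON.

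S100b, known as a marker of astrocytes, was near the limit of detection. It had 3, 6 and 15 counts in OFF24, 16, 1 and 31 counts in OFF48 and 4, 0 and 6 counts in ON, which is 2.54 ± 1.70 CPM in OFF24, 5.05 ± 4.15 CPM in OFF48 and 1.06 ± 1.07 CPM in ON (SD, n = 3 each). The groups overlapped, with OFF48 replicate 2 below 2 of the ON libraries in CPM. The fitted log2 fold change was 1.47 ± 0.85 in OFF24 over ON and 2.61 ± 0.75 in OFF48 over ON, and the call at 48 h was lost without OFF48 replicate 3 (1.98), with DESeq2 (2.34) and in the authors' deposited log2 table (2.20). S100b did not pass the filter on low counts when only OFF48 and ON were used. The value at 48 h was 1.95 without ON replicate 2 and 3.45 without ON replicate 3.

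**Figure D2:**
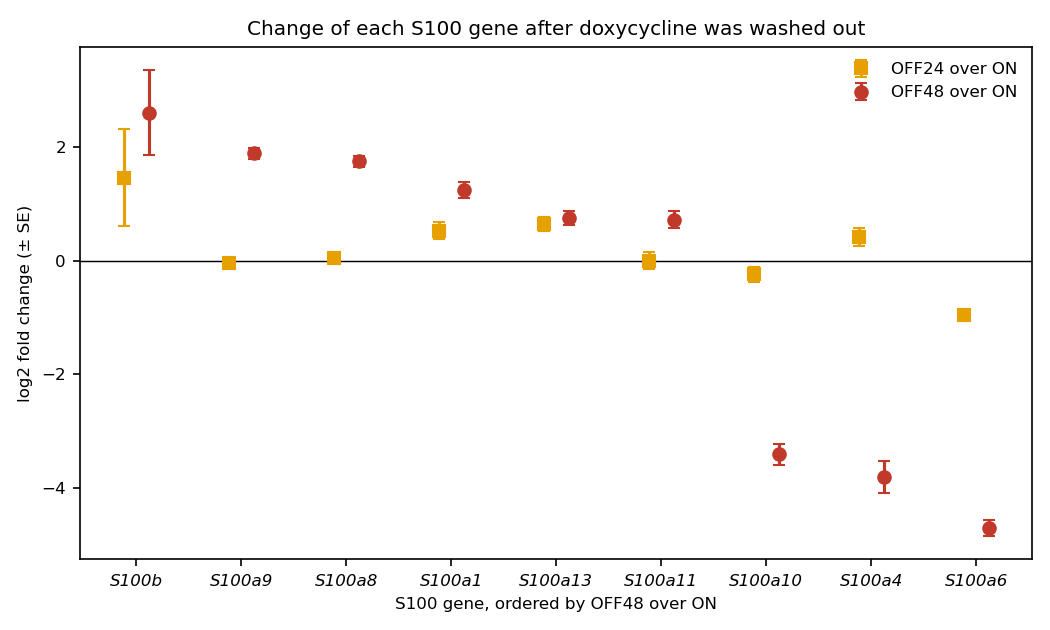
Log2 fold change of each S100 gene (vertical axis) in OFF24 over ON (squares) and OFF48 over ON (circles), with SE bars from the edgeR fit and genes ordered by the value at 48 h. At 48 h the genes run from 2.61 for S100b to -4.71 for S100a6, and at 24 h all but S100b lie between -0.96 and 0.65.

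In GENCODE M21 on mm10, 8 of the 9 genes lie on chromosome 3 and S100b lies on chromosome 10 at chr10:76253853-76261159. From low to high coordinates the first group was S100a1 (chr3:90511034-90514392, minus strand), S100a13 (chr3:90514435-90524581), S100a4 (chr3:90603771-90606045), S100a6 (chr3:90612882-90624181), S100a8 (chr3:90668978-90670035) and S100a9 (chr3:90692632-90695721, minus strand). S100a11 (chr3:93520488-93526287) and S100a10 (chr3:93555080-93564643) lie 2824.8 kb beyond S100a9. Among the members, which were chosen for opposite directions, runs of higher and of lower genes followed each other along the chromosome. Other S100 genes with few or no counts, such as S100a14, S100a5 and S100a7a, lie between them and are left out of this order. S100a1 and S100a13, 42 bases apart, were both higher at 48 h. S100a4 and S100a6, 6.8 kb apart and the next members in order, were both lower, and S100a8 and S100a9, 22.6 kb apart, were both higher. S100a11 was higher and S100a10, 28.8 kb away on the same strand, was lower. The divergent pair S100a1 and S100a13 also differed in timing, with log2 fold changes of 0.71 ± 0.14 and 0.09 ± 0.12 in OFF48 over OFF24.

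**Figure D3:**
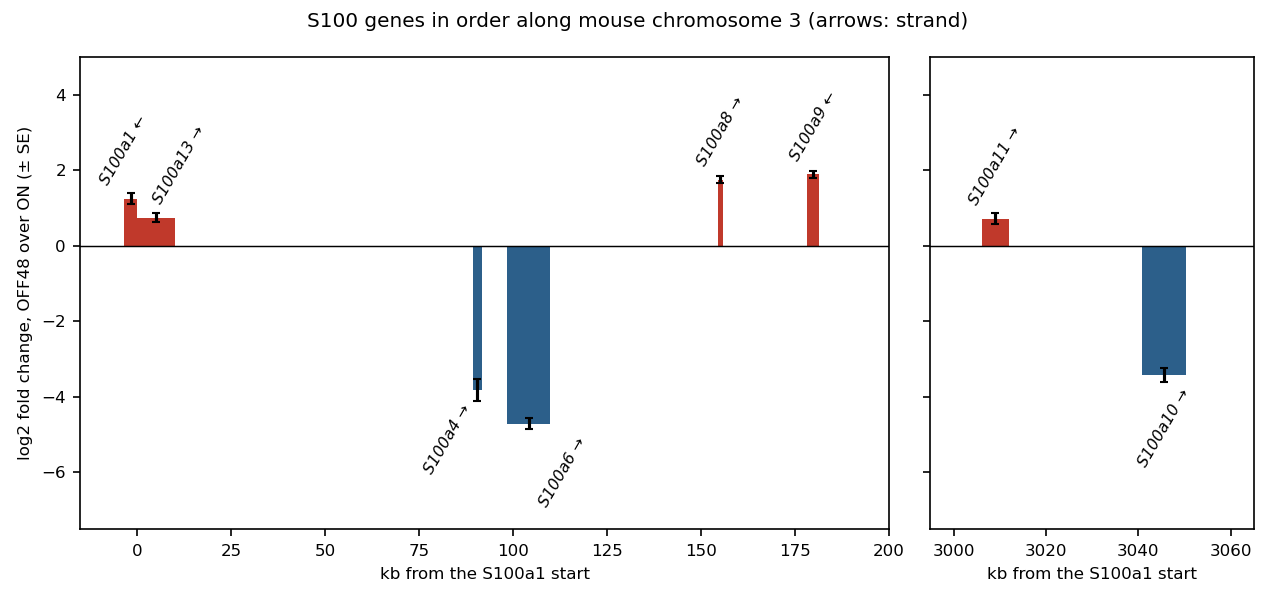
Log2 fold change in OFF48 over ON (vertical axis, bars with SE) of the 8 S100 genes on chromosome 3, against distance in kb from the start of S100a1. Bars span the annotated gene (at least 1.5 kb wide for legibility), arrows give the strand, and the horizontal axis is broken between S100a9 and S100a11. Bars above and below 0 alternate in groups, with S100a4 and S100a6 at -3.82 and -4.71 between S100a13 at 0.75 and S100a8 at 1.75.

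Between the outermost of these genes, 100 other annotated genes are neither S100 nor S100 fused-type genes. Of these, 49 were in the count table, 9 had any count, the highest count in 1 library was 9, and 0 entered the tests. The rest of the family was near the limit of detection: of 16 further S100 and fused-type genes looked for, 14 were in the table and 6 had a count. S100a2, S100a3, S100a5, S100a14 and S100a16 had at most 4 counts in any library. Tchh, a fused-type gene of hair follicles, had at most 5, and 0 of the 16 entered the tests. The predicted gene Gm42674 overlaps S100a4 on the same strand and resembles part of its last 400 bases (268 bases at 97.8% identity). It ends at chr3:90605885, before the end of S100a4. The predicted genes Gm12854 and Gm7665 resemble the end of S100a11 (260 bases at 98.8% and 98.5% identity), and Dip2a overlaps S100b on the opposite strand. Of these only Dip2a is in the count table, which also keeps genes without a count, so the annotation used may have lacked the predicted genes. That annotation is not given, so the values of S100a4, S100a11 and S100b carry this uncertainty.

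Across the 9 libraries, log2 CPM of S100a8 and S100a9 had a Pearson correlation of 0.995, S100a6 and S100a10 one of 0.985 and S100a4 and S100a10 one of 0.980. S100a9 and S100a4 were opposed (-0.984). S100a1 and its divergent neighbour S100a13 reached 0.705. These values describe 9 points in 3 groups that share their libraries and any shift at 48 h, and members higher at 48 h did not all follow each other closely (S100a11 and S100a13 had 0.317, S100a11 and S100b 0.0594).

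The genes whose profile was most like each member, among 7584 candidates with a mean of at least 10 CPM, were named by the same correlation. For both S100a8 and S100a9 the closest was Chil3, a chitinase-like protein of neutrophils (0.990 and 0.989), at 149 CPM in OFF24, 1275 CPM in OFF48 and 110 CPM in ON. The nucleoside diphosphate kinase gene Nme2 was closest to S100a6 (0.997), at 410, 193 and 483 CPM in OFF24, OFF48 and ON. Grhpr, a glyoxylate reductase, was closest to S100a4 (0.996), at 55.3, 18.6 and 51.5 CPM in OFF24, OFF48 and ON. Ifitm1, an interferon-induced membrane protein, was closest to S100a10 (0.997), at 303, 59.8 and 298 CPM in OFF24, OFF48 and ON. S100a1 was followed most closely by Plekho2 and then Stim1, S100a11 by Pilrb1, S100a13 by Arhgap31 and S100b by Usp21 (0.984, 0.983, 0.985, 0.986 and 0.968).

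The values below for other genes carry the edgeR quasi-likelihood test, with Benjamini-Hochberg adjustment over all 10215 genes. The median log2 fold change over all tested genes was 0.03 in OFF24 and 0.01 in OFF48 over ON, with 17.8% of them higher and 17.4% lower in OFF24, and 23.4% higher and 23.9% lower in OFF48. These shares are the background for each list. Calprotectin helps to assemble the phagocyte oxidase. All 7 of its tested subunit genes rose in OFF48 against ON, and 5 of 7 rose in OFF24 against ON with 0 lower. The list's median log2 fold change at 48 h was 0.81, beside 0.01 over all genes. Cybb, the catalytic subunit, had 66.5 ± 15.4 CPM in OFF48 and 7.99 ± 1.41 CPM in ON (SD, n = 3 each; log2 3.03 ± 0.21, adjusted p = 9.07e-10 by edgeR). Ncf4, a cytosolic subunit, rose by 1.12 ± 0.12 on the log2 scale (adjusted p = 4.02e-07, edgeR), and the GTPase Rac2 by 0.82 ± 0.09 (7.17e-07, edgeR). Ncf1, the organiser subunit, rose in OFF48 by 0.81 ± 0.14 on the log2 scale (adjusted p = 0.000109), with 0.14 ± 0.14 in OFF24 (adjusted p = 0.447), both by edgeR.

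Genes of neutrophil granules and maturation were mostly higher at 48 h. Of 15 tested, 11 rose and 1 fell in OFF48 against ON, and 6 rose and 2 fell in OFF24 against ON, with median log2 fold changes of 2.11 and 0.43 beside 0.01 and 0.03 over all genes. Camp, the cathelicidin peptide, had 658 ± 45.6 CPM in OFF24, 5167 ± 430 CPM in OFF48 and 202 ± 26.1 CPM in ON (SD, n = 3 each). It rose already at 24 h (log2 1.70 ± 0.11, adjusted p = 2.17e-09, edgeR). Lcn2, the iron-siderophore binder lipocalin 2, had a log2 fold change of -0.21 ± 0.17 at 24 h (adjusted p = 0.345) and rose by 1.60 ± 0.15 at 48 h (adjusted p = 1.01e-07), both by edgeR. Ltf, lactoferrin, rose to 21.1 ± 6.45 CPM in OFF48, against 1.02 ± 0.734 CPM in ON, with an edgeR adjusted p of 7.96e-08. Chil3 rose by 3.53 ± 0.14 on the log2 scale in OFF48 (adjusted p = 1.6e-12, edgeR) and by 0.43 ± 0.14 in OFF24 (adjusted p = 0.023, edgeR). The call of Chil3 at 24 h was lost in the authors' deposited log2 table (0.49). It was also lost without ON replicate 1 (0.37) or 3 (0.32) and without OFF24 replicate 1 (0.38), 2 (0.43) or 3 (0.43). Il1r2, Cd177, Ly6g and Padi4 were named after their values were seen. Il1r2 fell to 0.097 ± 0.168 CPM in OFF48, against 6.52 ± 1.06 CPM in ON (edgeR adjusted p = 2.71e-06). At 24 h Il1r2 and Cd177 were the 2 that fell (edgeR adjusted p = 0.00747 and 0.0491). Ly6g, Padi4 and Cd177 were not called at 48 h (edgeR adjusted p = 0.649, 0.51 and 0.0967).

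Myeloid transcription factors, several of them known to act on S100a8 and S100a9, were mostly higher: 13 of 19 rose and 3 fell in OFF48 against ON, and 9 rose and 3 fell in OFF24 against ON. Their median log2 fold change was 0.88 at 48 h and 0.41 at 24 h. Myb, a factor of immature blood cells, rose to 802 ± 82.2 CPM in OFF48, against 348 ± 17.6 CPM in ON (log2 1.21 ± 0.10, adjusted p = 1.11e-08, edgeR). Jun, a subunit of AP-1, rose by 1.77 ± 0.16 on the log2 scale in OFF48 (adjusted p = 6.55e-08, edgeR). Gfi1, a repressor needed for neutrophil formation, rose by 0.60 ± 0.11 in OFF24 and by 1.04 ± 0.11 in OFF48 over ON (edgeR adjusted p = 0.000241 and 1.7e-07). Fosl2, another AP-1 subunit, rose by 1.14 ± 0.13 in OFF24 and 1.26 ± 0.13 in OFF48 (edgeR adjusted p = 2.16e-06 and 2.57e-07). The 3 that fell were Junb, Bhlhe40 and Hif1a, named after their values were seen. Junb, also an AP-1 subunit, had log2 fold changes of -0.70 ± 0.24 in OFF24 and -0.97 ± 0.25 in OFF48 (edgeR adjusted p = 0.0404 and 0.00764). In OFF48 Bhlhe40 had -1.25 ± 0.15 and Hif1a -0.54 ± 0.11 (edgeR adjusted p = 1.07e-06 and 0.000421). The C/EBP factors were picked out after their values were seen, because S100a9 holds their motif, and 3 of the 4 rose at 48 h. Cebpe, needed for late neutrophil maturation, rose by 1.17 ± 0.13, Cebpd by 0.88 ± 0.11 and Cebpa, a factor of early granulocyte commitment, by 0.76 ± 0.13 on the log2 scale (edgeR adjusted p = 3.41e-07, 2.34e-06 and 6.63e-05). Cebpb had -0.04 ± 0.11 (edgeR adjusted p = 0.792). S100a8, also higher at 48 h, does not hold the C/EBP motif. Spi1, the gene of PU.1, was likewise picked out afterwards and rose by 0.69 ± 0.12 at 48 h (edgeR adjusted p = 7.96e-05). The PU.1 motif is in S100a8, which was higher at 48 h, and in S100a4, which was lower. A part of these factors in the S100 levels was not tested.

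Of 13 receptors and signal carriers for released S100 proteins, 5 rose and 2 fell in OFF48 against ON, where 23.4% of all genes rose and 23.9% fell. In OFF24 against ON 4 rose and 1 fell, beside 17.8% and 17.4% of all genes. The list's median log2 fold change was 0.26 at 48 h and 0.15 at 24 h. Cd33, a lectin reported in humans to bind S100A9, rose to 888 ± 53.7 CPM in OFF24 and 1260 ± 299 CPM in OFF48, against 385 ± 38.3 CPM in ON (edgeR adjusted p = 3.45e-06 and 2.3e-08). Bsg, also called basigin, rose in OFF24 by 0.55 ± 0.11 and fell in OFF48 by 0.90 ± 0.12 on the log2 scale (edgeR adjusted p = 0.000744 and 3.7e-06). Alcam, an adhesion molecule, rose to 12.3 ± 2.88 CPM in OFF48, against 2.21 ± 0.216 CPM in ON (edgeR adjusted p = 1.2e-05). Emb, embigin, rose by 0.77 ± 0.11 in OFF24 (edgeR adjusted p = 2.67e-05), with 0.26 ± 0.11 in OFF48 (edgeR adjusted p = 0.0608, and 0.0243 with the replicate block). Tlr4, the receptor most often named for S100A8, was chosen after its values were seen. It fell at both times, by 0.62 ± 0.14 in OFF24 and 0.55 ± 0.14 in OFF48 (edgeR adjusted p = 0.0018 and 0.00339).

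Annexins and other partners of S100a10 and S100a11 rose in 5 of 11 and fell in 3 in OFF48 against ON, and 4 rose and 0 fell in OFF24 against ON. Their median log2 fold change was 0.29 at 48 h and 0.06 at 24 h. Anxa1, which S100a11 binds, rose to 48.1 ± 7.92 CPM in OFF48, against 12 ± 1.91 CPM in ON (log2 1.98 ± 0.20, adjusted p = 1.39e-07, edgeR). Anxa3 and Anxa5, both calcium-dependent binders of phospholipid membranes, rose by 1.14 ± 0.10 and 1.17 ± 0.11 in OFF48 (edgeR adjusted p = 2.4e-08 and 3.39e-08). Ahnak, a giant scaffold protein bound by the S100a10 and annexin A2 complex, fell to 1.17 ± 0.519 CPM in OFF48, against 8.26 ± 1.24 CPM in ON (log2 -2.63 ± 0.40, adjusted p = 2.08e-05, edgeR). Anxa2 itself, singled out after its values were seen as the partner of S100a10, fell to 468 ± 60.2 CPM in OFF48, against 664 ± 138 CPM in ON (log2 -0.51 ± 0.16, adjusted p = 0.0177, edgeR). That call was lost without ON replicate 2 (-0.33), OFF48 replicate 1 (-0.44) or OFF48 replicate 3 (-0.47). It was also lost in the authors' deposited log2 table (-0.44).

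Of 18 intracellular partners of the other members, 3 rose and 9 fell in OFF48 against ON, and 5 rose and 5 fell in OFF24 against ON. Their median log2 fold change was -0.11 at 48 h and 0.00 at 24 h. Cacybp, the partner of S100a6, fell to 46.1 ± 6.53 CPM in OFF24 and 46.4 ± 5.63 CPM in OFF48, against 112 ± 14.9 CPM in ON (edgeR adjusted p = 7.22e-07 and 2.62e-07). Unlike S100a6, it had no further difference between the OFF times (log2 -0.03 ± 0.15, adjusted p = 0.921, edgeR). Stip1, a co-chaperone of HSP90, fell by 0.84 ± 0.11 in OFF24 and 1.15 ± 0.12 in OFF48 (edgeR adjusted p = 1.02e-05 and 1.49e-07). Vim, the intermediate filament vimentin, rose in OFF24 by 0.34 ± 0.10 and fell in OFF48 by 1.27 ± 0.11 (edgeR adjusted p = 0.0151 and 2.26e-08). The call of Vim at 24 h was lost without ON replicate 1 (0.32) or 3 (0.29) and without OFF24 replicate 1 or 2 (0.31 each). It was also lost in the authors' deposited log2 table (0.34). Myh9, the non-muscle myosin heavy chain that S100a4 binds, rose by 0.41 ± 0.10 in OFF24 and 0.71 ± 0.10 in OFF48 (edgeR adjusted p = 0.00336 and 8.07e-06).

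Outside the S100 family, 8 of 36 other EF-hand genes rose and 4 fell in OFF48 against ON, shares no higher than the 23.4% and 23.9% of all tested genes. In OFF24 against ON 6 rose and 4 fell, beside 17.8% and 17.4% of all genes. Their median log2 fold change was 0.10 at 48 h and 0.04 at 24 h. Myl12b, a myosin regulatory light chain, rose by 1.35 ± 0.11 and Sri, the calcium sensor sorcin, by 1.16 ± 0.11 on the log2 scale in OFF48 (edgeR adjusted p = 1.04e-08 and 4.72e-08). Capn2, a subunit of the protease calpain, fell to 2.92 ± 0.738 CPM in OFF48, against 14.6 ± 0.999 CPM in ON (edgeR adjusted p = 9.05e-07). Pls3, an actin bundler, fell to 5.58 ± 0.474 CPM in OFF48, against 18.7 ± 0.896 CPM in ON (edgeR adjusted p = 4.21e-06).

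Among calcium entry and store genes, 10 of 22 rose and 5 fell in OFF48 against ON, and 5 rose and 2 fell in OFF24 against ON, with median log2 fold changes of 0.34 and 0.12. Stim1, the calcium sensor of the endoplasmic reticulum, rose by 0.95 ± 0.14 and Orai2, a channel it opens, by 1.16 ± 0.13 in OFF48 (edgeR adjusted p = 1.34e-05 and 6.29e-07). Atp2a3, a calcium pump of blood cell stores, rose by 1.02 ± 0.14 (edgeR adjusted p = 1.18e-05) and Atp2b1, a plasma membrane pump, by 0.69 ± 0.11 (edgeR adjusted p = 4.58e-05). Among the 5 that fell was the store pump Atp2a2, also on the list of intracellular partners and named after its values were seen. Its log2 fold change was -0.48 ± 0.12 in OFF24 and -0.60 ± 0.12 in OFF48 (edgeR adjusted p = 0.00381 and 0.000424). In OFF48 against OFF24, 9.99% of all genes rose and 11.2% fell. In that comparison 4 of 7 oxidase genes, 11 of 15 neutrophil genes and 9 of 19 transcription factors rose, and 0, 2 and 1 fell. Of the annexin list 5 of 11 rose and 1 fell, of the intracellular partners 2 of 18 rose and 3 fell, and of the receptors 3 of 13 rose and 2 fell. Of the other EF-hand genes 7 of 36 rose and 3 fell, and of the calcium entry and store genes 6 of 22 rose and 1 fell.

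**Figure D4:**
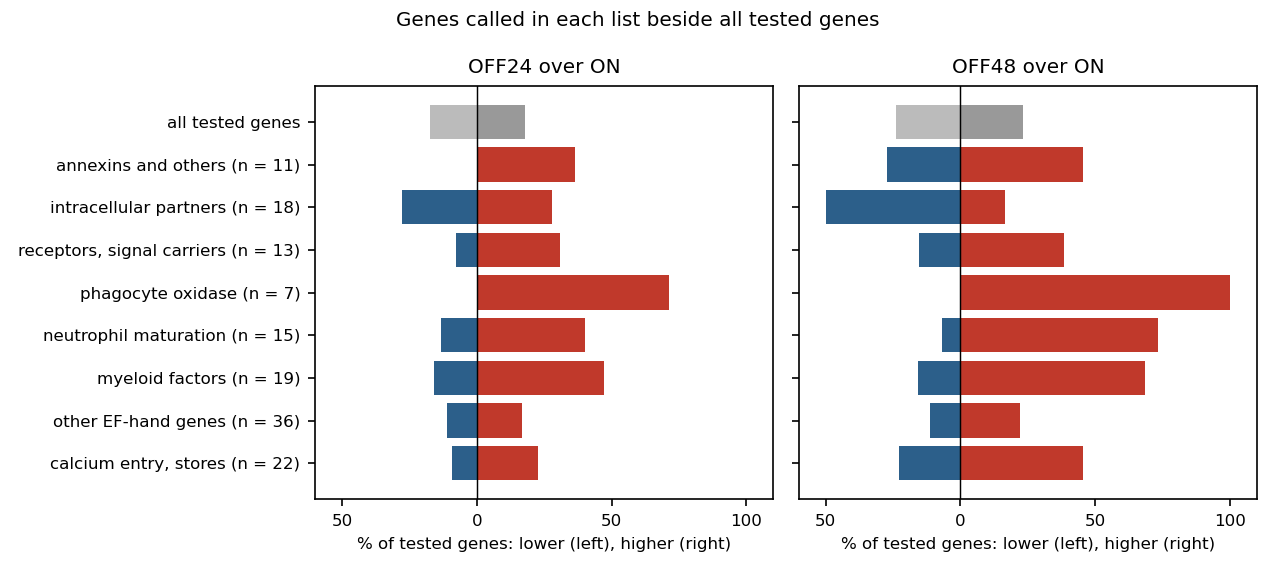
Percent of the tested genes of each list called higher (to the right of 0) or lower (to the left) at an adjusted p of 0.05, in OFF24 over ON and OFF48 over ON. The top row gives the share over all tested genes (23.4% higher and 23.9% lower at 48 h), and n is the number of genes tested in the list. All 7 oxidase genes were higher at 48 h.

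The second deposited table, of log2 values, gives another picture of S100a8. In the authors' deposited table the highest value is 13.867 in every library, and the next is 13.3596. S100a8 takes only these values, 13.3596 in all OFF24 libraries and in ON replicates 1 and 3, and 13.867 in all OFF48 libraries and in ON replicate 2. The difference in OFF48 over ON is therefore 0.34 in the authors' deposited table and 1.75 in the counts. S100a9 holds 13.3596 in all OFF48 libraries, and its difference is 1.70 in the authors' deposited table and 1.89 in the counts. For S100a6 the difference was -4.71 in both. It was -3.58 for S100a4, -3.27 for S100a10 and 2.20 for S100b in the authors' deposited table, against -3.82, -3.41 and 2.61 in the counts. In a limma fit to the authors' deposited table, 7 of the 9 members were called in OFF48 against ON, without S100a8 and S100b. A table in which every library has the same highest values cannot show a larger share of the top genes in 1 group, and the values of S100a8 here are those of the counts.

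**Figure D5:**
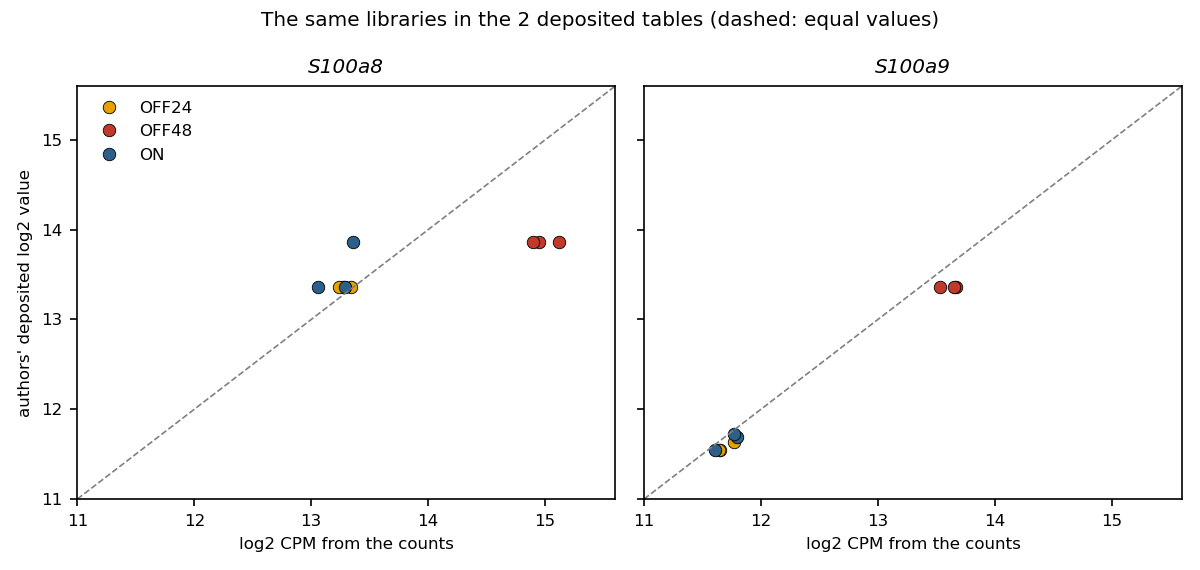
The log2 value in the authors' deposited table (vertical axis) against log2 CPM from the counts (horizontal axis) for S100a8 and S100a9, 1 point a library, with the line of equal values dashed. S100a8 of OFF48 libraries is spread to the right in the counts and sits at 13.867 in the deposited table, beside ON replicate 2.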

How the data were processed

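Total RNA of 9 cultured libraries was sequenced from the 3′ end, per the labels' protocols. The submitters' processing notes name HISAT2 2.0.4, featureCounts of Subread 1.5.0-p3, cutadapt 1.5, limma 3.42.2 and the build mm10. Which annotation and strand setting were used, and how multi-mapping reads were handled, is not given in the sources used here. Of the deposited files, the authors' first table gives raw read counts by gene symbol, whole numbers without normalisation. The second deposited table holds log2 values in 10552 rows, and its name in the series credits voom and limma. It served as an alternative. Of the symbols, 26 have the form of a date and were left so.

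Groups and replicate numbers came from the sample titles. Counts were tested in R 4.3.3 with edgeR 4.0.16: filterByExpr by group, TMM scaling, and a robust quasi-likelihood fit to all 9 libraries with 6 residual degrees of freedom. P-values were adjusted by Benjamini-Hochberg with a threshold of 0.05. The same fit was tested on simulated counts. CPM values use TMM-scaled library sizes. Fold changes are log2 values, and log2 CPM for correlations used a prior count of 2. Libraries of 1 group varied beyond counting error, with a chi-square over its degrees of freedom of 1.99 to 6.99, and none were identical. Floors cover counting error only, since the tables carry no molecular identifiers. Deviations of same-numbered libraries of OFF48 and ON had correlations of 0.115 to 0.406, over 0.1 in 3 of 3 pairs. However, OFF48 replicate 1 correlated more with ON replicate 3 (0.19) than with ON replicate 1 (0.115). OFF48 replicate 3 also reached 0.124 with ON replicate 1. Replicate 2 libraries did correlate best with their own number in every pair of groups. Their values were 0.202 for OFF24 with ON, 0.406 for OFF48 with ON and 0.177 for OFF48 with OFF24. A pairing by number is therefore not clear from the data for replicates 1 and 3, and no label states one. OFF48 against ON was also read with the replicate block.

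The members and the gene lists were chosen with earlier results of these data known. The text names all members, the S100 genes with a count, up to 4 genes a list with the smallest p-values against ON, and the 3 most similar genes of each member, of which the closest are given. Promoters are RefSeq's, matched by symbol for 8 of 9 members. Shared 3′ ends were searched with blastn 2.17.0 in the last 400 bases, at 95% identity over at least 100 bases. Alternatives were other scalings, DESeq2 1.42.0, limma-voom (limma 3.58.1), the deposited log2 table, no filter, only the groups compared, a replicate block and leaving out each library. Scaling without S100a8 and S100a9 was added after seeing the data.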

Additional observations from a re-analysis of the deposited data

Results flagged for a closer look

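In 2 of the named genes the changes against ON at 24 h and at 48 h were both called, with opposite signs, and the difference between the times also passed the test. Vim, the filament protein vimentin, differed by -1.62 ± 0.11 (log2, OFF48 over OFF24, edgeR adjusted p = 3.15e-09), with 0.34 in OFF24 over ON and -1.27 in OFF48 over ON. Bsg differed by -1.45 ± 0.12 (edgeR adjusted p = 2.97e-08), with 0.55 in OFF24 over ON and -0.90 in OFF48 over ON. The rise of Vim at 24 h was no longer called without ON replicate 1 (0.32) or 3 (0.29) and without OFF24 replicate 1 or 2 (0.31 each). Nor was it called in the authors' deposited log2 table (0.34). All 3 OFF48 libraries were below all 3 OFF24 libraries in both genes, and the cause was not tested.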

How the results depend on the processing

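The number of S100 genes called in OFF24 against ON was 4, and it was 2 (S100a6 and S100a13) in the authors' deposited log2 table, without ON replicate 1 and without OFF24 replicate 3; leaving out each library in turn gave 2 to 4. The number of list genes called in OFF48 against OFF24 was 60, and 38 in the authors' deposited log2 table. Il1r2, Cd177, Ly6g, Padi4, Junb, Bhlhe40, Hif1a, Spi1 and Atp2a2 were not followed over the settings. They are left out of the counts of named genes in this section. No other named result past the threshold reversed its sign. Over the named genes outside the family and all settings, 99 values lost their call, 20 gained one and 3356 did neither. The small 24 h values of S100a11, S100a8 and S100a9 changed sign in 13, 2 and 1 of 19 settings, and that of S100a13 in OFF48 over OFF24 in 1. Among members the largest shift was that of S100a8 in the deposited log2 table. Correlations of same-numbered libraries were over 0.1 in 1 of 3 pairs of OFF24 with ON and 1 of 3 pairs of OFF48 with OFF24, so the numbers were not read as pairs there. With the replicate block, 4200, 5189 and 2701 genes were called in OFF24 against ON, OFF48 against ON and OFF48 against OFF24, where the fit without it called 3603, 4841 and 2160. The block called 4, 9 and 7 members, as did the fit without it. Between OFF48 and ON it changed the call of 1 named gene, Emb, and no other. In all, 3 of 9 libraries correlated best with their own number in both other groups, and these were the libraries of replicate 2. Low counts limit S100b, and S100a4 and S100a10 in OFF48. The causes of these shifts were not tested.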
